A study of Homo sapiens with 6 samples.

Results

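The thioredoxin system examined here comprised 10 genes, chosen by name from the 60709 genes with a value in the count table: the thioredoxins TXN and TXN2, the thioredoxin reductases TXNRD1 and TXNRD2, the sulfiredoxin SRXN1, and the peroxiredoxins PRDX1, PRDX2, PRDX3, PRDX5 and PRDX6. All 10 were found by their Ensembl identifiers, and all 10 had at least 10 counts in every library used. The RNA came from SH-SY5Y, an established cell line derived from a human neuroblastoma, and was sequenced as messenger RNA. The labels describe 3 control wells that received 10 uL of DMSO and 3 wells that received the same amount of DMSO together with Nrf2-peptide-linked fumarate in water, 200 uL of a solution of 2 mg in 600 uL. All wells were lysed after 5 h, and no addition of water is described for the control wells. The table's value columns are numbered 1 to 6, the labels give the control samples the numbers 4, 5 and 6, and they give the peptide-treated samples 13, 14 and 15.

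Columns 4, 5 and 6 were therefore read as control replicates 1, 2 and 3, and the other 3 columns, which bear no labelled sample's number, were not used. No treated library was analysed here and no response to the peptide is reported. The name control rests on this match of numbers alone, and it is in doubt. If the depositors renumbered the columns, the same 3 libraries may come from peptide-treated cells, and each level below is then a level in treated cells. The doubt covers every gene below, TXNRD1 and SRXN1 among them, and no level or ratio should be read as that of control cells. The libraries are called the libraries labelled control for this reason, and no value below is an established untreated level.

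Thioredoxins are small proteins that reduce disulfides in other proteins through a pair of active-site cysteines, and thioredoxin reductases, which are selenoproteins, restore them with electrons from NADPH. Peroxiredoxins use a reactive cysteine to reduce hydrogen peroxide and other peroxides, and most of them are then recycled by thioredoxin. When that cysteine is oxidised too far, sulfiredoxin repairs it in the typical 2-Cys peroxiredoxins. The system has a cytosolic arm (TXN, TXNRD1, PRDX1, PRDX2, PRDX6) and a mitochondrial arm (TXN2, TXNRD2, PRDX3 and, in part, PRDX5), and TXN, TXNRD1, PRDX1 and SRXN1 are textbook targets of NRF2, the transcription factor named in the peptide's label.

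The libraries held 8887854 to 11397407 counts. Of 10 noradrenergic neuroblastoma marker genes, 9 had at least 10 counts in every library, HAND2 among them at 914 ± 44.3 CPM (SD, n = 3), while TH was at 0 counts in all 3, which allows up to 0.339 CPM in the shallowest library. CPM here are counts per 1000000 of the library total after scaling with TMM factors, which adjust the totals so that most genes balance between libraries. Of 7 markers of other cell types, COL1A1 and EPCAM had at least 10 counts in every library, at 14.4 ± 0.974 and 1.24 ± 0.220 CPM, and the summed level of all 7 ranged from 15.4 to 16.9 CPM. PTPRC, CD68, PECAM1, ALB and GFAP had at most 3 counts in any library. Replicate 3 stood apart from the other libraries: mitochondrially encoded genes took 6.25% of its counts against 4.11% and 3.83% in replicates 1 and 2, and its differences from them followed GC content. Values with the GC trend removed are given with the deviations of replicate 3. With mitochondrially encoded genes left out, all 10 levels rose by nearly the same factor, and the summed level was 2311 instead of 2202 CPM. The rise exceeded 1 SD for 6 of the 10 levels. Which genes these were depends on the size of each SD and does not set some genes apart as more sensitive.

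The 10 genes together held 0.219, 0.224 and 0.217% of all counts in replicates 1, 2 and 3. The 95% Wilson intervals of these shares were 0.216 to 0.222%, 0.221 to 0.227% and 0.214 to 0.220%. Over the 3 libraries the share averaged 0.220 ± 0.00347% (SD, n = 3) and the summed level 2202 ± 28.7 CPM. These intervals cover counting error only. TXNRD1 alone supplied 45.8 ± 0.529% of the family's counts, with no adjustment for its length. The other 9 genes summed to 1193 ± 4.04 CPM. Per kb of the longest transcript, the median of the 10 genes was 118 CPM per kb, beside 8.37 for all genes with a length among the 13920 that had 10 or more counts in each library. The libraries are bulk RNA, so the number of cells with a transcript and the amount per cell cannot be told apart.

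**Figure D1:**
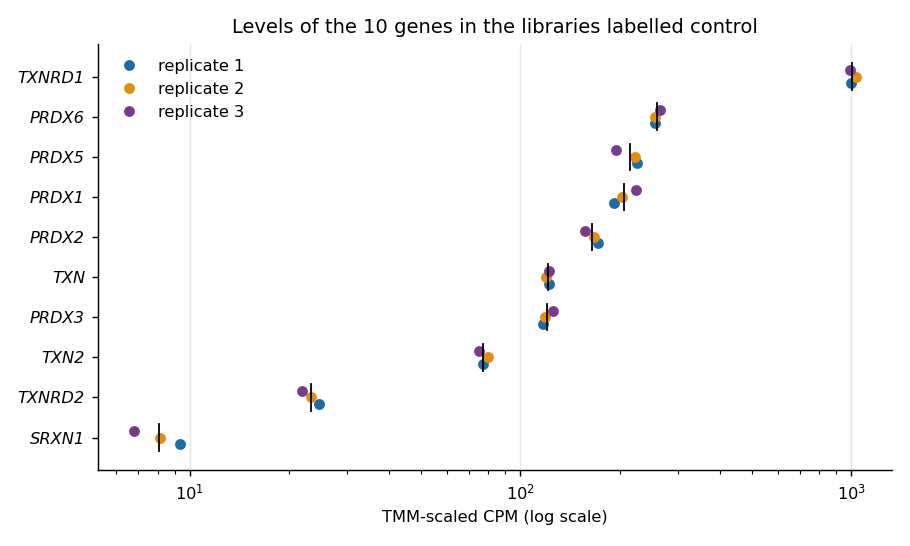
TMM-scaled CPM (log scale) of each gene in the 3 libraries labelled control, 1 point per library, with the mean as a black line. TXNRD1 sits near 1008 CPM, 7 genes lie between 75.1 and 265 CPM, and TXNRD2 and SRXN1 lie below 25 CPM.

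TXN (ENSG00000136810.13, at chr9:110243811-110256640 on the minus strand of GRCh38) encodes the cytosolic and nuclear thioredoxin. Its counts were 1305, 1365 and 1079 in replicates 1, 2 and 3, and its levels were 122, 119 and 122 CPM. The 3 libraries were nearly level: the coefficient of variation, 1.19%, was smaller than the counting error of each library, 2.71 to 3.04%. This held only before the GC trend was removed. After removal the levels were 126, 120 and 117 CPM, and the coefficient of variation was 3.98%. TXN2 (ENSG00000100348.10, at chr22:36467036-36482030, minus strand), the mitochondrial thioredoxin, had 825, 909 and 665 counts, or 77.1, 79.5 and 75.1 CPM. Replicate 2 was highest, and the spread of 2.88% was below the counting error of 3.32 to 3.88%. With the GC trend removed the spread of TXN2 was 4.45%.

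TXNRD1 (ENSG00000198431.16, at chr12:104215779-104350305, plus strand) encodes the cytosolic thioredoxin reductase. It had 10657, 11849 and 8781 counts in replicates 1, 2 and 3. Its levels were 997, 1037 and 992 CPM, or 1008 ± 24.9 CPM on average (SD, n = 3). Replicate 2 was highest and replicates 1 and 3 were nearly equal, and the coefficient of variation, 2.46%, exceeded the counting error of 0.919 to 1.07%. TXNRD2 (ENSG00000184470.21, at chr22:19875517-19941992, minus strand), the mitochondrial reductase, had 264, 266 and 194 counts, or 24.7, 23.3 and 21.9 CPM. Its mean was 23.3 ± 1.39 CPM, and its spread of 5.97% was below the counting error of each library, 6.13 to 7.18%.

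NRF2 binds the antioxidant response element, whose core is often written TGACNNNGC, or TGANNNNGC in a looser form that includes the first. Both were searched on both strands of the RefSeq promoter windows on GRCh38.p14, from 250 bases before to 50 after each start. Windows were at hand for 7 of the 10 genes (11 windows), and TXN2, PRDX1 and PRDX6 had none. TGACNNNGC occurred in 13.3% of all 34943 promoter windows and in 16.1% of 27167 genes. Among the 7 genes it occurred in TXNRD1 only, in both of its windows and 3 times in all. TGANNNNGC occurred in 41.8% of all windows and in 47.0% of the 27167 genes. It occurred in 4 of the 7 genes, TXNRD1, TXNRD2, PRDX2 and PRDX3. The 3 stretches of TXNRD1 are shown because it had the most counts of the family and was the only one of the 7 genes with this match. They are written 5′ to 3′ on the plus strand, in lower case with the 9 matching bases in capitals, as TGACNNNGC itself or as its reverse complement. They lie at chr12:104215650-104215718, at chr12:104215741-104215779, which ends on the base of the first start itself, and at chr12:104286900-104286968, before the second start.
first start, match beginning 99 bases before it: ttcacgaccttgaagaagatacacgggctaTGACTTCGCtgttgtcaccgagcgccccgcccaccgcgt
first start, match beginning 8 bases before it: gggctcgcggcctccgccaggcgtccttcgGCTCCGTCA
second start, match beginning 102 bases before it: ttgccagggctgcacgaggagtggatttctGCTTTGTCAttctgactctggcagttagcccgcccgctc
A match describes the letters of the window and is not a measured binding site, and the gene counts do not tell which start was used.

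PRDX1 (ENSG00000117450.15, at chr1:45511036-45523047, minus strand) encodes a cytosolic typical 2-Cys peroxiredoxin. It had 2047, 2325 and 1978 counts, or 191, 203 and 223 CPM. Replicate 3 was highest although it was the shallowest library, and the spread of 7.83% exceeded the counting error of 2.07 to 2.25%. PRDX1 shares 379 exon bases with MMACHC on the opposite strand in GENCODE release 29, and MMACHC had 139, 133 and 104 counts. Whether the counting used strand is not given in the sources used here, so reads over those bases cannot be assigned with certainty. PRDX2 (ENSG00000167815.12, at chr19:12796820-12801859, minus strand), the other cytosolic typical 2-Cys enzyme measured here, had 1831, 1908 and 1385 counts. Its levels were 171, 167 and 156 CPM, lowest in replicate 3, so PRDX1 and PRDX2 ran in opposite directions between replicates 1 and 3. This held only before the GC trend was removed. After removal both were highest in replicate 3, PRDX1 at 186, 202 and 231 CPM and PRDX2 at 163, 164 and 167 CPM. PRDX6 (ENSG00000117592.9, at chr1:173477266-173488807, plus strand), the 1-Cys peroxiredoxin that also acts on phospholipids, had 2723, 2926 and 2346 counts. Its levels were 255, 256 and 265 CPM, nearly level between libraries, with a spread of 2.16%.

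PRDX3 (ENSG00000165672.7, at chr10:119167703-119178833, minus strand), the typical 2-Cys enzyme of mitochondria, had 1249, 1355 and 1108 counts, or 117, 119 and 125 CPM. PRDX5 (ENSG00000126432.14, at chr11:64318088-64321811, plus strand), an atypical 2-Cys enzyme found in mitochondria, peroxisomes and cytosol, had 2411, 2537 and 1718 counts. Its levels were 225, 222 and 194 CPM, with replicate 3 below both other libraries. The spread of PRDX5, 8.07%, was the largest of the peroxiredoxins and exceeded its counting error of 1.99 to 2.41%.

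Processed copies of these genes took few reads. Of 18 annotated pseudogenes named after the 10 genes, 11 had 0 counts in every library, and none had more than 3 counts in any. Their counts summed to 10, 7 and 4 in replicates 1, 2 and 3. How reads that match several places were treated is not given in the sources used here.

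SRXN1 (ENSG00000271303.2, at chr20:646615-653370, minus strand) had the fewest counts of the 10 genes. They were 100, 93 and 60, or 9.35, 8.14 and 6.78 CPM, on average 8.09 ± 1.29 CPM (SD, n = 3). Replicate 3 was lowest, and the spread of 15.9% lay near the counting error of 10.0 to 12.9%. The annotation bears on this level. In GENCODE release 29 a second protein-coding gene on the same strand, ENSG00000270299, starts upstream of SRXN1 and ends in the same last exon. It covers 2292 of the 2698 exon bases of SRXN1 and leaves 406, or 15.0%, that belong to SRXN1 alone. The count table lists ENSG00000270299.1 too, with 2, 2 and 0 counts, which are all the counts it received over all its exons. Reads over shared bases can be given to either gene, to both or to neither. At most 2, 2 and 0 of them can have gone to ENSG00000270299.1, alone or together with SRXN1. Whether the others were given to SRXN1 or to neither gene is not given in the sources used here. Spread over the whole longest transcript, the counts of SRXN1 amounted to 2.998 ± 0.478 CPM per kb. If reads over the shared bases were left out, the same counts belong to 406 bases and amount to 19.9 ± 3.17 CPM per kb. How much of the SRXN1 transcript its counts cover is not known.

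**Figure D2:**
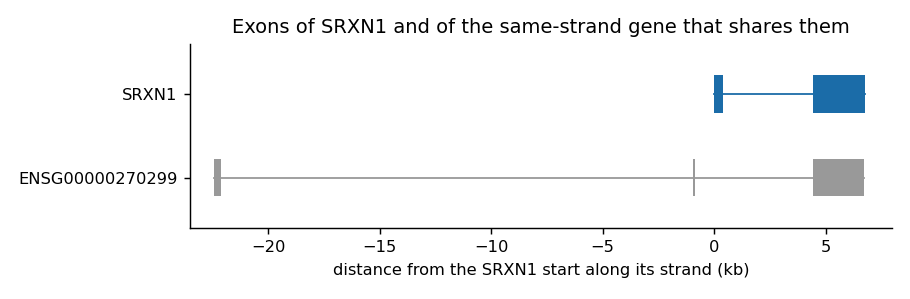
Exons (boxes) of SRXN1 and of ENSG00000270299 in GENCODE release 29, against the distance in kb from the SRXN1 start along its strand. The 2 genes share the last exon, of which 2292 bases are common, while the first exon of SRXN1, 395 bases, lies in SRXN1 only.

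Levels of different genes were set in order per length. Per kb of the longest transcript, PRDX5 had 252, 249 and 217 CPM per kb in replicates 1, 2 and 3 (239 ± 19.3 on average, SD, n = 3) and TXNRD1 had 233, 242 and 232 CPM per kb (236 ± 5.81). The ranges of these 2 genes overlapped, and TXNRD1 was the higher in replicate 3. PRDX1 followed at 167 ± 13.1 CPM per kb, PRDX6 at 148 ± 3.19, TXN at 139 ± 1.66 and PRDX2 at 96.0 ± 4.44. PRDX3 with 52.8 ± 1.93, TXN2 with 44.5 ± 1.28, TXNRD2 with 7.38 ± 0.440 and SRXN1 with 2.998 ± 0.478 CPM per kb were lower. From TXNRD1 down, the ranges of neighbours in this order did not overlap, and each gene exceeded the next in 3 of 3 libraries. The closest of these neighbours were PRDX6 and TXN, whose means differed by a factor of 1.06. Against the 13863 of the 13920 genes that have a length, PRDX5 and TXNRD1 stood above 98.9%, PRDX1 above 98.3%, PRDX6 above 98.1% and TXN above 97.9%. TXNRD2 stood above 46.7% of them and SRXN1 above 25.8%. The place of SRXN1 counts all 2698 of its bases. If its reads came from its 406 unshared bases only, it would have 19.9 ± 3.17 CPM per kb, above TXNRD2, so its low place is uncertain.

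The order depended on which length was used. For TXNRD1 the longest transcript has 4277 bases, the merged exons 6708, the median coding transcript 1933 and the coding sequence 1947. Per kb of merged exons, the union of all annotated exons, PRDX5 led with 239 ± 19.3 CPM per kb and TXNRD1 had 150 ± 3.70. Per kb of the median coding transcript TXNRD1 led with 522 ± 12.9 CPM per kb and PRDX5 had 359 ± 28.9. Per kb of coding sequence TXNRD1 again led, at 518 ± 12.8, while PRDX6 (385 ± 8.30) and TXN (384 ± 4.57) overlapped. PRDX3 and TXN2 changed places on merged exons, 35.2 ± 1.28 against 37.7 ± 1.09 CPM per kb, and overlapped on coding length. TXNRD2 and SRXN1 were the lowest pair under all 4 lengths, and SRXN1 exceeded TXNRD2 on merged exons (2.998 against 2.78 CPM per kb, overlapping) and on coding length (19.7 against 14.8).

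**Figure D3:**
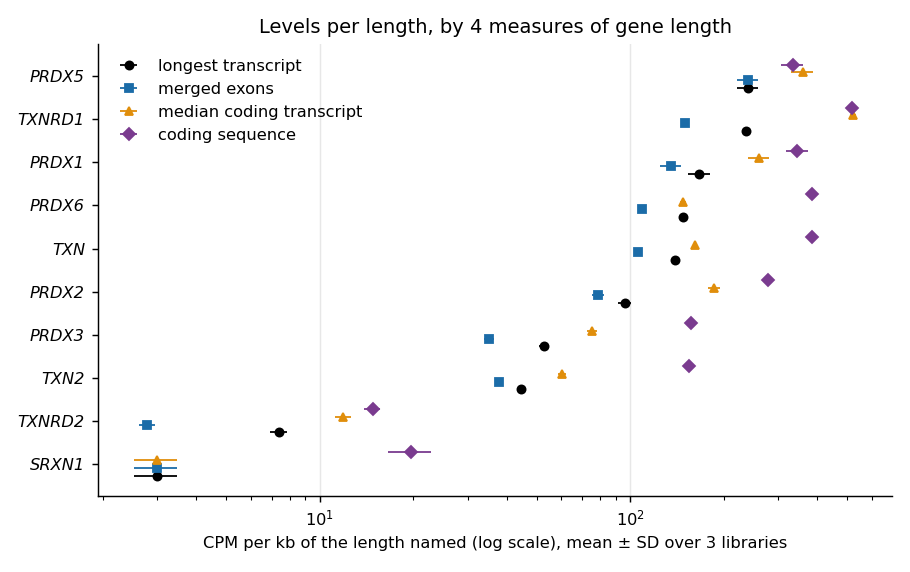
Mean ± SD over 3 libraries of CPM per kb (log scale) for each gene, by 4 measures of gene length. TXNRD1 runs from 150 on merged exons to 522 on the median coding transcript, and TXNRD2 and SRXN1 lie below all other genes under each length.

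The cytosolic thioredoxin and reductase exceeded their mitochondrial counterparts, by different factors. Per kb of the longest transcript, the log2 ratio of TXN to TXN2 was 1.66, 1.58 and 1.70 in replicates 1, 2 and 3, and TXN was on average 3.13 ± 0.123 times TXN2 (SD, n = 3). TXNRD1 was 29.8, 32.9 and 33.4 times TXNRD2, a mean of 32.0 ± 1.95. These 2 ratios did not overlap in any library. The 3 cytosolic peroxiredoxins PRDX1, PRDX2 and PRDX6 together were 1.32, 1.36 and 1.56 times PRDX3 and PRDX5 together, a mean of 1.41 ± 0.127, highest in replicate 3. This sets a sum of 3 genes against a sum of 2. On this length PRDX5 alone, at 239 ± 19.3 CPM per kb, exceeded each of the 3 cytosolic genes in every library. Per kb of coding sequence PRDX6 (385 ± 8.30) instead exceeded PRDX5 (333 ± 26.9) in every library, and PRDX1 (345 ± 27.0) overlapped PRDX5. All 3 ratios stayed above 1 in every library under all 4 lengths. Their means went from 2.48 to 3.13 for the thioredoxins, from 32.0 to 54.2 for the reductases and from 1.18 to 2.06 for the peroxiredoxins. Since PRDX5 is also found outside mitochondria, the last ratio does not separate compartments.

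Within each arm, reductase and thioredoxin also stood in different proportions. TXNRD1 was 1.69 ± 0.0621 times TXN per kb of the longest transcript, and TXNRD2 was 0.166 ± 0.00884 times TXN2. Over the 4 lengths the first ratio went from 1.35 to 3.24 and the second from 0.0738 to 0.197. The cytosolic arm thus had more reductase than thioredoxin transcript and the mitochondrial arm less, under each length and in each library.

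Most of the 10 genes varied little between libraries, and SRXN1 did not. The coefficients of variation of the 10 genes ran from 1.19% (TXN) to 15.9% (SRXN1), with a median of 4.14%, beside a median of 8.69% over the 13920 genes. Of the 10, 9 lay below that median, and SRXN1 lay above it. Counting error falls as counts rise, and all of the 10 genes but TXNRD2 and SRXN1 stood above at least 75.7% of the 13920 genes in CPM. Its part in the low spread was not tested. Without replicate 3 the median over the 10 genes was 1.97%. The median over all genes without replicate 3 is not given here, so this fall is not shown to be particular to the family. Over the 13920 genes, replicates 1 and 2 differed least from each other, with a chi-square per degree of freedom of 2.21. It was 10.2 and 9.21 for replicate 3 against replicates 1 and 2.

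**Figure D4:**
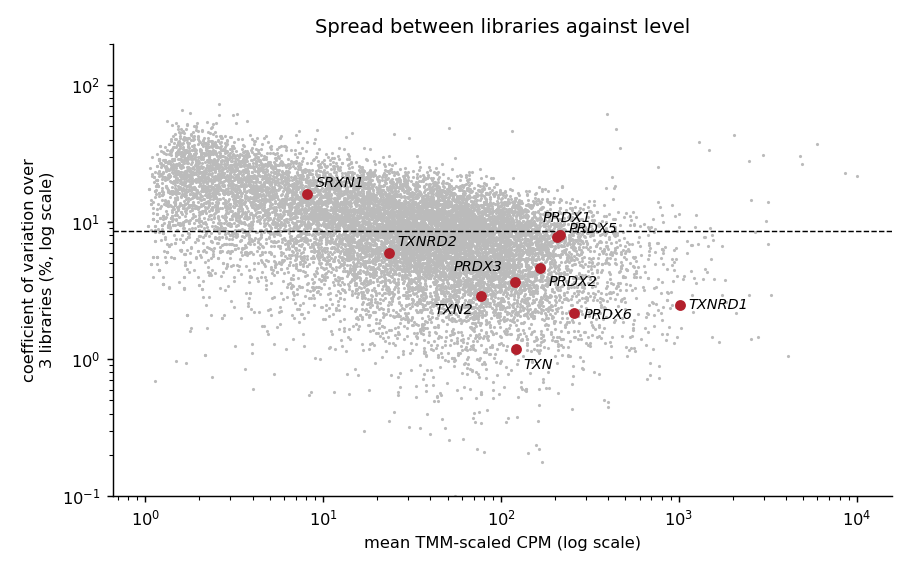
Coefficient of variation over the 3 libraries (%, log scale) against mean CPM (log scale) for the same 13920 genes (grey), with the 10 genes in red and the median of all genes, 8.69%, as a dashed line. SRXN1 is the only one of the 10 above the line.

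Replicate 3 lay outside the range of replicates 1 and 2 for 9 of the 10 genes. It was above both for PRDX1, PRDX3 and PRDX6, 3 of 10, beside 38.6% of the 13920 genes. It was below both for TXN2, TXNRD1, TXNRD2, SRXN1, PRDX2 and PRDX5, 6 of 10, beside 41.8% of them. As log2 differences from the mean of replicates 1 and 2, the deviations ran from -0.37 for SRXN1 and -0.21 for PRDX5 to 0.09 for PRDX3 and 0.18 for PRDX1. Their median size was 0.10, beside 0.16 over the 13920 genes. Across the 10 genes the deviation had a Spearman's rho of -0.685 with the GC content of the longest transcript, and across 10290 nuclear genes it had -0.727. The genes share these 3 libraries and are not independent, so no p-value is given.

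With the GC trend of each library removed, the deviation came closer to 0 for 6 of the 10 genes. The coefficient of variation also fell for 6 of the 10, beside 9111 of the 13920 genes, so such a fall was not particular to this family. The deviation of PRDX5, whose longest transcript has 61.5% GC, went to 0.00, that of PRDX3 (43.1% GC) to 0.01 and that of PRDX6 (45.2% GC) to 0.02. PRDX1, with an intermediate GC of 51.4%, instead went from 0.18 to 0.25, with levels of 186, 202 and 231 CPM, and it remained highest in replicate 3. SRXN1 went from -0.37 to -0.25. TXN2, TXNRD2 and PRDX2 went from negative to positive deviations, of 0.09, 0.08 and 0.04, while TXN went from 0.01 to -0.07 and TXNRD1 from -0.04 to -0.09. The coefficient of variation of PRDX5 went from 8.07 to 1.06% and that of PRDX3 from 3.65 to 0.717%. It rose for PRDX1 from 7.83 to 10.9%, for TXN from 1.19 to 3.98%, for TXN2 from 2.88 to 4.45% and for TXNRD1 from 2.46 to 3.49%.

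**Figure D5:**
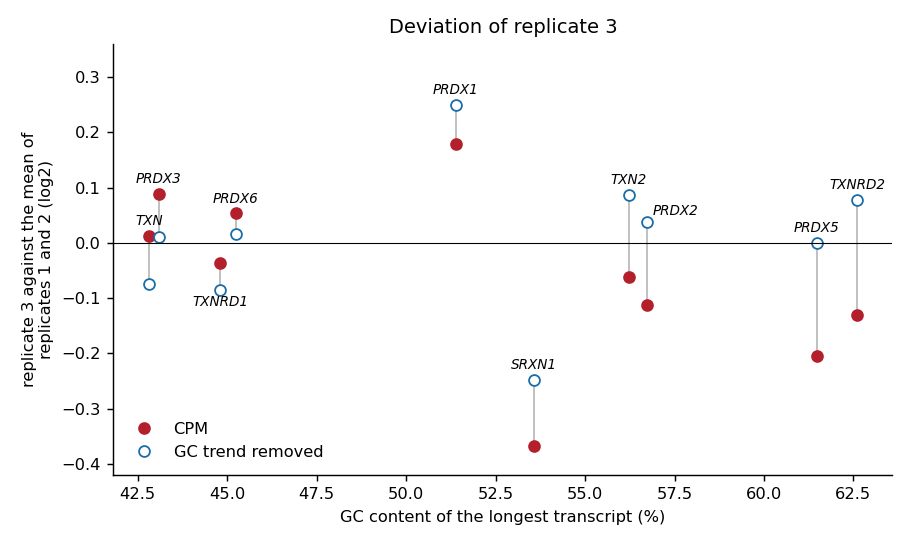
Log2 difference of replicate 3 from the mean of replicates 1 and 2 against the GC content of each gene's longest transcript, from CPM (filled) and with the GC trend removed (open). PRDX1 stays highest and SRXN1 lowest in both, while PRDX5 moves from -0.21 to 0.00.

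Other genes of thiol redox metabolism were taken from a list of 33, of which 31 had at least 10 counts in every library. The median over the 33 was 38.3 ± 4.87 CPM, or 11.5 CPM per kb, against 118 CPM per kb for the 10 genes of the family. The highest of the list per length were the ribonucleotide reductase subunits RRM2, with 74.8 ± 2.66 CPM per kb, and RRM1, with 63.5 ± 3.66 CPM per kb, enzymes that draw electrons from thioredoxin or glutaredoxin. PRDX4, the peroxiredoxin of the endoplasmic reticulum, had 52.6 ± 4.26 CPM per kb, which overlapped PRDX3. TXNIP, a protein that binds and inhibits thioredoxin, had 49.1 ± 1.72 CPM per kb, below TXN in every library. TXNRD3, the reductase best known from testis, had 3.43 ± 0.388 CPM per kb, below TXNRD2. MAP3K5, the kinase that reduced thioredoxin holds inactive, had 0.348 ± 0.0789 CPM per kb from 12 to 23 counts. NXNL1 and NXNL2, nucleoredoxin-like genes, had at most 1 count in any library. RRM1, PRDX4, TXNIP and TXNRD3 were picked from the list after their values were seen.

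All 7 genes listed for the NRF2 pathway had at least 10 counts in every library. This describes their RNA and not the activity of NRF2. NFE2L2, which encodes NRF2, had 99.1 ± 17.0 CPM (n = 3), and KEAP1, which targets it for degradation, had 134 ± 12.5 CPM. Per kb of the longest transcript, TXNRD1 (236 ± 5.81 CPM per kb) exceeded 5 other NRF2 targets in every library. These were NQO1 with 29.5 ± 1.49, GCLC with 18.01 ± 0.988, GCLM with 13.0 ± 1.69, HMOX1 with 3.04 ± 0.696 and SLC7A11 with 1.01 ± 0.201 CPM per kb. The means of PRDX1, PRDX2, PRDX3, PRDX5, PRDX6, TXN and TXN2 also exceeded all 5. The lowest of these was TXN2 with 44.5 ± 1.28 CPM per kb, so such a level was not particular to TXNRD1. Only this length was used for the comparison. SRXN1 overlapped HMOX1 on this scale, which includes the exon bases that SRXN1 shares with another gene. Over its unshared bases alone it would have 19.9 ± 3.17 CPM per kb.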

How the data were processed

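The authors deposited 1 table of raw counts per Ensembl gene, not normalized, per the file headers and the values. Per the submitters' processing notes, fastp 0.21.1, STAR 2.7.7a, featureCounts and GRCh38 were used. Annotation release, strand setting and treatment of reads shared between genes are not given in the sources used here. The libraries came from total RNA with a stranded messenger RNA kit, per the labels' protocols. The 60710 listed genes include 1 without a value in the columns used, and 2 further lines name no gene and hold no count in those columns. There were 3 value columns that matched no sample, and they were not used. The planned comparison of treated with control libraries (edgeR's quasi-likelihood test) was not run, since columns matched 1 group only.

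CPM were computed with edgeR 4.0.16 (R 4.3.3), whose TMM factors were taken over all genes. Gene lengths, GC content, overlaps and coordinates came from GENCODE release 29 on GRCh38, which may differ from the authors' annotation. The GC trend of a library was the median deviation of log2 levels (0.5 added to counts) in 50 bins of the 10290 nuclear genes whose counts averaged 100 or more and reached 10 in each library. It was tested on simulated data. Counts differed between replicates beyond sampling noise (chi-square per degree of freedom 2.21 to 10.2), so they were kept as 3 samples, and nothing says whether they were separate cultures. Intervals are 95% Wilson intervals. The 10 genes and the lists were chosen with earlier results of these data known. The naming rule took all 10 genes, then from each list the highest and lowest genes and those under 10 counts, then genes a result turns on. Python 3.11.15, numpy 2.4.6, pandas 2.3.3, scipy 1.17.1 and matplotlib 3.10.9 were used.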

Additional observations from a re-analysis of the deposited data

How the results depend on the processing

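No paired analysis was possible because columns matched the control samples only, so the test of treated against control libraries and its other settings (DESeq2, RLE factors, no filter, the block and leaving out replicates) were not run. Scaling by RLE factors or by library size only, and taking out the GC trend, moved none of the 10 levels in CPM by more than 1 SD between replicates. The TMM and RLE factors lay between 0.990 and 1.006, and the GC trend is taken around each gene's mean over the 3 libraries. A mean of 3 libraries could thus hardly move under these settings, and they say little about the levels. Leaving out mitochondrially encoded genes raised all 10 levels by nearly the same factor, beyond 1 SD for 6 of them, and the summed level from 2202 to 2311 CPM. On the log2 scale, the ratio of TXN to TXN2 was 1.65 with the longest transcript, 1.49 with merged exons, 1.42 with the median coding transcript and 1.31 with coding length. The ratio of TXNRD1 to TXNRD2 was 5.00, 5.76, 5.46 and 5.13 in the same order, and the peroxiredoxin ratio was 0.49, 0.24, 0.45 and 1.04. Of 31 levels per length under other lengths, 27 moved by more than 1 SD. The median coefficient of variation of the 10 genes, 4.14%, was 1.97 to 5.63% when 1 library was left out, lowest without replicate 3. Over all genes, the median of 8.69% became 12.1% with a minimum of 1 count and 6.42% with the GC trend removed. A mean of 3 libraries cannot move by 1 SD when 1 is left out, so those settings say nothing about the levels. The level of SRXN1 over unshared exon bases, 19.9 CPM per kb, was added after the data were seen. Depth limits SRXN1 and TXNRD2 most, with 60 to 266 counts per library.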
